A study of Mus musculus with 16 samples.

Results

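The 9 genes described here encode transporters that carry glucose into cells and proteins that pass the insulin signal to them: Slc2a1, Slc2a3, Slc2a4, Slc2a12, Tbc1d1, Tbc1d4, Insr, Irs1 and Irs2. They were taken by gene symbol from the 55487 genes of the deposited table, and all 9 were among the 17490 genes tested. Skeletal muscle RNA was sequenced from CHCHD4 Tg mice (Tg) and wild-type mice (WT), each with treadmill training or without it, which gave 4 libraries each of trained Tg, trained WT, untrained Tg and untrained WT muscle. CHCHD4 takes part in the oxidative import of proteins into mitochondria, and the design asked which transcripts go with it and with exercise training. The promoter of the transgene, the muscle taken, the strain, the age, whether libraries came from separate animals, the length of training and the time between the last run and sampling are not given in the sources used here.

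In resting muscle most GLUT4, the protein of Slc2a4, is held in vesicles inside the fibre. Insulin binds its receptor, the receptor phosphorylates the IRS adaptor proteins, and the kinase Akt then phosphorylates the Rab GTPase-activating proteins TBC1D4 and TBC1D1, which lets the vesicles reach the surface. Contraction reaches the same Rab proteins through AMPK and calcium, without insulin, and endurance training is known to raise the amount of GLUT4 in muscle.

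Library totals lay between 40888325 and 61703724 counts, and TMM factors between 0.9242 and 1.285. Chchd4 measured 18.1 to 22.2 CPM in the Tg libraries and 6.88 to 8.98 CPM in the WT libraries, so every library matched its genotype label. WT untrained replicate 2 stood apart: it had the highest TMM factor, and its summed level of 12 myofibre genes was 133000 CPM, against 172000 to 203000 CPM in the other 15 libraries. Some values printed for a member moved by over 1.5 times when that library was left out. For these, the value without that library is given too, or the range over fits with a single library left out. In bulk muscle, fewer cells of a type and less RNA per cell cannot be told apart.

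Scaled to exon length, Slc2a4 stood above every other member. It measured 43.1 to 85.1 CPM per kb of exon over the 16 libraries, with a mean of 74.0. Tbc1d1 followed with a mean of 18 (12.2 to 20.4), and neither of these ranges overlapped that of the next gene. Irs1 (mean 7.64, 3.40 to 9.47), Insr (mean 5.53, 5.14 to 5.97) and Irs2 (mean 4.79, 2.91 to 9.85 CPM per kb) came next, and their ranges overlapped. Slc2a12 (mean 2.23, 1.35 to 2.64) and Tbc1d4 (mean 2.08, 1.63 to 2.68) were not separated from each other. Slc2a1 (mean 1.09, 0.833 to 1.43) and Slc2a3 (mean 0.692, 0.348 to 1.37 CPM per kb) were lowest, and they overlapped too. Among the 4 transporters, Slc2a4 made up 92.4% to 95.4% of the summed length-scaled level of a library, Slc2a12 2.53% to 3.48%, Slc2a1 1.16% to 2.03% and Slc2a3 0.458% to 2.93%. The exon union counts all annotated isoforms, so a gene with a long rare isoform has its level understated.

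**Figure D1:**
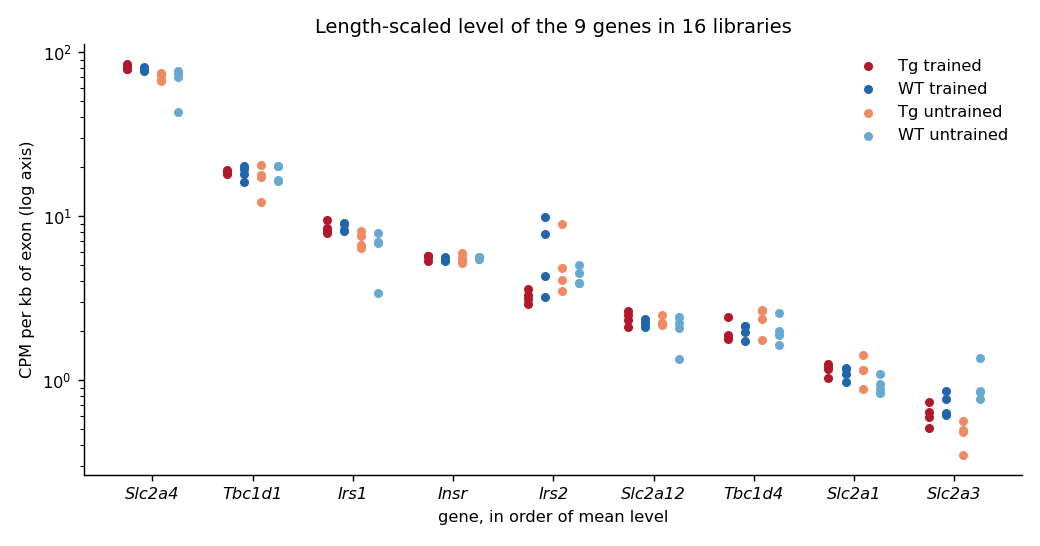
CPM per kb of exon (log axis) for the 9 genes in order of their mean, one point per library, coloured by group. Slc2a4 lies between 43.1 and 85.1 CPM per kb in every library, while Slc2a3, at the other end, lies between 0.348 and 1.37.

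Slc2a3 was the member that differed between genotypes: it was lower in untrained Tg muscle than in untrained WT muscle. It encodes GLUT3, a high-affinity glucose transporter best known from neurons and also used by blood cells, and lies on the minus strand of chromosome 6 (GRCm38, 122727809 to 122801640). It measured 3.51, 4.05, 3.60 and 2.52 CPM in untrained Tg replicates 1 to 4, against 5.57, 9.90, 6.25 and 6.16 CPM in untrained WT replicates 1 to 4. The groups did not overlap, and the highest value belonged to WT replicate 2. The log2 fold change (log2FC) was -1.03 (SE 0.186, 95% interval -1.43 to -0.64, edgeR adjusted p = 0.0185). Of the 9 members it was the 1 called in that comparison, in which 0.743% of all tested genes were called and 0.246% were called lower, and the 1 without overlap between the groups, beside 4.16% of all tested genes that were lower without overlap. Without WT untrained replicate 2 the log2FC was -0.81 and the gene was still called (adjusted p = 0.0237). The call was lost without untrained Tg replicate 3 (log2FC -1.05, adjusted p = 0.0568) or 4 (-0.90, adjusted p = 0.0593), with the 8 untrained libraries alone (-1.02, adjusted p = 0.0902), and without the 4 libraries over 10 CPM of the slow myosin gene Myh7 (-0.996, adjusted p = 0.0605).

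In trained muscle Slc2a3 measured 3.67, 4.60, 5.33 and 4.29 CPM in Tg replicates 1 to 4, against 4.43, 6.23, 5.55 and 4.58 CPM in WT replicates 1 to 4. These groups overlapped, as did those of the other 8 members, while 5.69% of all tested genes had no overlap. The log2FC of Tg over WT was -0.21 (95% interval -0.60 to 0.18, adjusted p = 0.853, edgeR). Averaged over training, Slc2a3 was called lower in Tg (log2FC -0.62, SE 0.131, adjusted p = 0.0329, edgeR), where 1.12% of all tested genes were called and 0.503% were called lower. That call was lost in 6 of 16 fits with a single library left out, namely without Tg trained replicates 2 or 4 (adjusted p = 0.0705 and 0.0769), WT trained replicate 3 (0.0705), or Tg untrained replicates 1, 3 or 4 (0.06, 0.0516 and 0.0627). With training, the log2FC of Slc2a3 was 0.39 in Tg (95% interval -0.01 to 0.79) and -0.43 in WT (95% interval -0.82 to -0.04), with edgeR adjusted p of 0.463 and 0.492. Without Tg untrained replicate 4 the value in Tg was 0.26, and without WT untrained replicate 2 the value in WT was -0.215 (adjusted p = 0.714). The difference between those responses was 0.82 (SE 0.262, unadjusted p = 0.00646, edgeR adjusted p = 0.616) and did not pass the threshold over all genes.

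None of the tested markers of macrophages, Schwann cells and nerve, neutrophils or platelets, which could carry Slc2a3 into a muscle sample, was called in the untrained comparison. In that comparison 0.743% of all tested genes were called, so 0 calls among so few markers say little about these cells. An unadjusted p under 0.05 (edgeR) was reached by 4 Schwann cell and nerve markers and 1 platelet marker, all higher in Tg. It was also reached by 1 neutrophil marker, lower in Tg, and by 0 macrophage markers, beside 16.2% of all tested genes. Of 11 tested macrophage markers, 0 were called and all 11 had a negative log2FC (median -0.36); the summed level of the 12 listed was 32.8 to 62.3 CPM in untrained Tg and 50.9 to 84.9 CPM in untrained WT libraries, which overlap. Schwann cell and nerve markers had a positive log2FC for 9 of 9 (median 0.70, 0 called), with sums of 33.9 to 82.9 CPM in untrained Tg and 27.1 to 45.6 CPM in untrained WT libraries, which overlap as well. Neutrophil markers were near the floor, with sums of 0.256 to 1.69 CPM in untrained Tg and 0.499 to 1.3 CPM in untrained WT libraries. Of 3 tested, 2 had a negative and 1 a positive log2FC (median -0.69), and Ly6g had 0 counts in 15 of 16 libraries. Platelet markers summed to 4.30 to 4.83 CPM in untrained Tg and 3.72 to 4.44 CPM in untrained WT libraries. Of 4 tested, 2 had a positive and 2 a negative log2FC (median 0.04), with Gp9 at 0 in 5 libraries and Gp6 at 0 in 9. The part of these cells in the level of Slc2a3 was not tested.

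Over the 16 libraries, the 3 named genes with the profile nearest to Slc2a3 were Otog, Ttll7 and Mrln, with root mean square distances of 0.197, 0.201 and 0.202 on the centred log2 CPM scale, among 11079 genes. The profile of Slc2a3 itself varied by 0.399 on that scale. Otog, which encodes otogelin of the inner ear's acellular membranes, measured 0.582, 0.655, 0.726 and 0.494 CPM in untrained Tg and 1.18, 2.60, 1.39 and 1.51 CPM in untrained WT libraries. Ttll7 encodes a tubulin polyglutamylase and measured 149, 161, 140 and 119 CPM in untrained Tg and 189, 267, 186 and 186 CPM in untrained WT libraries. Mrln encodes myoregulin, a small muscle protein that restrains the calcium pump of the sarcoplasmic reticulum; it measured 8.23, 10.1, 9.92 and 7.55 CPM in untrained Tg and 12.1, 18, 13.2 and 14 CPM in untrained WT libraries. All 3 genes were lowest in untrained Tg muscle by group mean and highest in WT untrained replicate 2. They were picked for likeness to Slc2a3 over these same libraries, so the shared pattern follows from the choice.

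**Figure D2:**
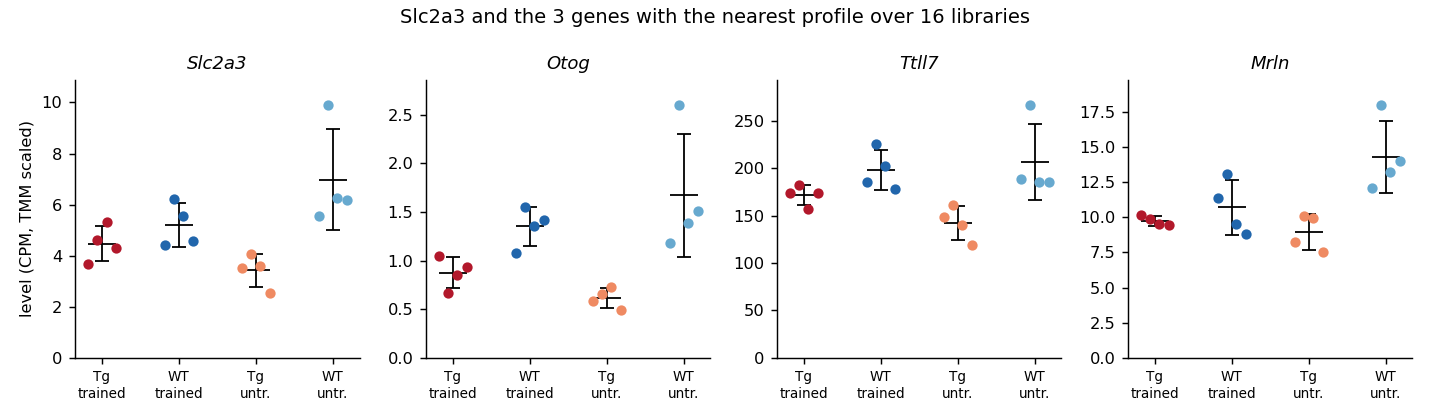
CPM of Slc2a3 and of its 3 nearest genes in each library, replicates 1 to 4 from left to right, with the mean (bar) and SD (whiskers) of each group of 4. In each panel WT untrained replicate 2 is the highest point, at 9.90 CPM for Slc2a3.

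Slc2a4 was abundant in all groups, and its mean was higher in trained than in untrained muscle of both genotypes, without passing the test. It lies on the minus strand of chromosome 11 (69942539 to 69948188) and encodes GLUT4, the insulin- and contraction-responsive transporter of muscle and fat. In Tg muscle it measured 273, 282, 274 and 296 CPM with training, against 260, 236, 231 and 251 CPM without. Those groups did not overlap, and 4.65% of all tested genes were likewise higher without overlap in that comparison. With edgeR 0% of all tested genes were called there, 0 by limma-voom and 126 by DESeq2, none of them a member, and 11.1% had an unadjusted p under 0.05. In WT muscle it measured 283, 271, 278 and 265 CPM with training, against 259, 150, 245 and 265 CPM without, and these groups shared the value 265, with the low value in WT untrained replicate 2.

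The log2FC of Slc2a4 with training was 0.21 in Tg (95% interval -0.06 to 0.47) and 0.26 in WT (95% interval -0.01 to 0.53). Without WT untrained replicate 2 the value in WT was 0.094 (edgeR adjusted p = 0.625). Averaged over genotypes it was 0.23 (SE 0.0895, unadjusted p = 0.02, edgeR adjusted p = 0.258), in a comparison in which 14.4% of all tested genes had an unadjusted p under 0.05. Without WT untrained replicate 2 the averaged log2FC was 0.15 (adjusted p = 0.0549), without the 3 libraries over 10 CPM of the liver gene Alb it was also 0.15 (adjusted p = 0.0501), and without the 4 libraries high in Myh7 it was 0.11 (adjusted p = 0.257). Between genotypes the log2FC of Slc2a4 was 0.09 without training and 0.04 with training, with 95% intervals of -0.18 to 0.36 and -0.23 to 0.31. With a single library left out, the untrained value ranged from -0.068 to 0.167 and so changed sign. Among the nearest profiles were those of Srl, a sarcoplasmic reticulum calcium-binding protein gene, and Coq9, which serves coenzyme Q synthesis, at distances of 0.063 and 0.064 against a variation of 0.219 for Slc2a4 itself. Slc2a4, Srl and Coq9 were each lowest in WT untrained replicate 2, where Srl measured 529 CPM and Coq9 82.5 CPM. Srl and Coq9 were picked for likeness over the same libraries, so the shared low library follows from the choice.

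Slc2a1 and Slc2a12, the other transporters, were not called in any of the 7 contrasts. Slc2a1 encodes GLUT1, the widely expressed basal transporter, and lies on the plus strand of chromosome 4 (119108711 to 119137983). It measured 4.03, 3.07, 5.01 and 4.06 CPM in untrained Tg libraries, against 3.32, 2.92, 3.09 and 3.79 CPM in untrained WT libraries. The groups overlapped, and the log2FC was 0.31 (95% interval 0.03 to 0.58, adjusted p = 0.264, edgeR), and 0.19 without Tg untrained replicate 3. In trained muscle it measured 4.40, 4.11, 3.62 and 4.23 CPM in Tg, against 4.13, 3.80, 3.40 and 4.10 CPM in WT, which differed by less than the spread between libraries. Endothelial markers, which mark cells rich in GLUT1, had a positive log2FC in untrained Tg for 11 of 11 (median 0.22, 0 called), with sums of 277 to 351 CPM in untrained Tg and 210 to 296 CPM in untrained WT libraries; their part in the level of Slc2a1 was not tested.

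Slc2a12 encodes GLUT12, a glucose transporter also found in muscle and fat, and lies on the plus strand of chromosome 10 (22645011 to 22704285). By group it measured 10.1 ± 1.02 CPM in trained Tg, 9.48 ± 0.417 in trained WT, 9.67 ± 0.632 in untrained Tg and 8.54 ± 1.96 CPM in untrained WT libraries (mean ± SD, n = 4). The wide spread of the last group came with 5.72 CPM in WT untrained replicate 2, against 8.79 to 10.2 CPM in its other 3 libraries. Tbpl1, on the opposite strand, shares 9.61% of the exon bases of Slc2a12, and reads there cannot be told apart without strand.

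**Figure D3:**
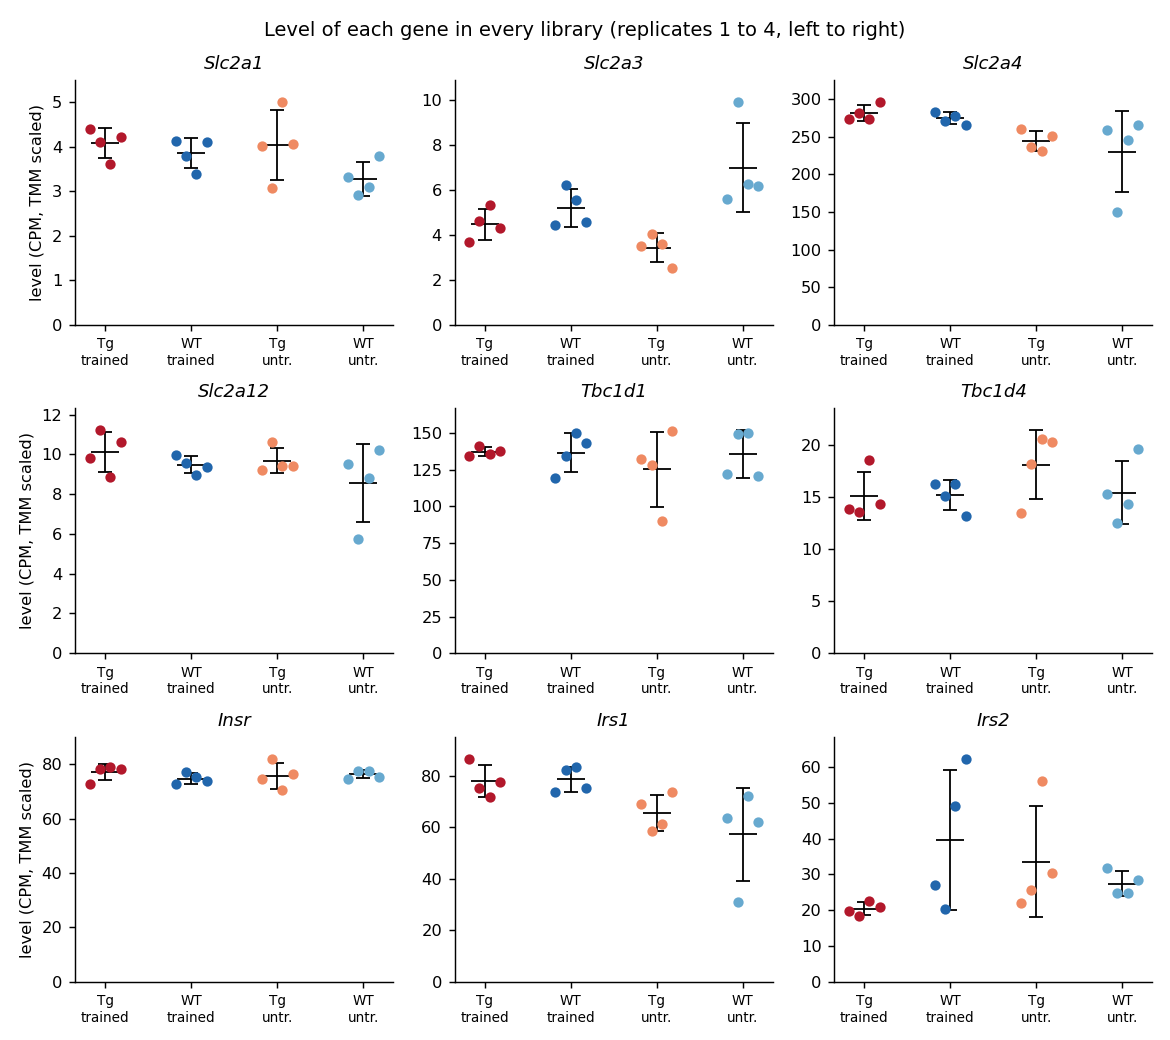
CPM of the 9 genes in each library, replicates 1 to 4 from left to right, with the mean (bar) and SD (whiskers) of each group of 4; every axis starts at 0. Slc2a3 separates untrained Tg (2.52 to 4.05 CPM) from untrained WT (5.57 to 9.90 CPM), and Irs2 has its 3 highest points in trained WT (49.1 and 62.3 CPM) and untrained Tg muscle (56.2 CPM).

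The Rab GTPase-activating proteins showed no called difference. Tbc1d1, on the plus strand of chromosome 5 (64156305 to 64351486), encodes the form that prevails in fast glycolytic fibres. It measured 134, 141, 136 and 138 CPM in trained Tg and 119, 134, 150 and 143 CPM in trained WT libraries, and 132, 128, 90.0 and 151 CPM in untrained Tg and 122, 149, 150 and 121 CPM in untrained WT libraries. The lowest value was in Tg untrained replicate 3, which had 42.1 CPM of Myh7. Tg untrained replicate 2, with the highest Myh7 level of 64.3 CPM, had 128 CPM of Tbc1d1, and WT trained replicate 3, with 29.7 CPM of Myh7, had 150 CPM. The part of fibre type in the level of Tbc1d1 was not tested. Tbc1d4, on the minus strand of chromosome 14 (101442360 to 101609191), encodes AS160, the Akt substrate through which insulin releases GLUT4 vesicles. It measured 13.5, 18.2, 20.6 and 20.3 CPM in untrained Tg, against 15.3, 12.5, 14.4 and 19.6 CPM in untrained WT libraries (log2FC 0.23, 95% interval -0.08 to 0.55), and the log2FC was 0.14 without WT untrained replicate 2. With training it stood at 15.1 ± 2.36 CPM in Tg and 15.3 ± 1.47 CPM in WT libraries, and the log2FC of training in Tg was -0.26 (95% interval -0.58 to 0.05, adjusted p = 0.544, edgeR).

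Insr, the insulin receptor gene on the minus strand of chromosome 8 (3122061 to 3279617), was the steadiest member. It measured 77.1 ± 2.87 CPM in trained Tg, 74.8 ± 1.90 in trained WT, 75.8 ± 4.75 in untrained Tg and 76.3 ± 1.47 CPM in untrained WT libraries (mean ± SD, n = 4). The 95% intervals of its log2FC in the 4 pairwise contrasts all lay between -0.142 and 0.157. Over the 16 libraries its centred profile varied by 0.052 on the log2 scale, the smallest value of the 9 genes, against 0.515 for Irs2, the largest.

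The promoters of the adaptor genes Irs1 and Irs2 are shown because they carry the same pair of motifs in the same order. The windows run from 250 bases before to 50 bases after the RefSeq start site (GRCm38.p6, minus strand), and capitals mark the E-box CACGTG and TGTTTT, the core of the insulin response sequence to which FoxO factors bind. RefSeq windows were at hand for 6 of the 9 genes (Slc2a1, Slc2a12, Tbc1d1, Tbc1d4, Irs1 and Irs2).
Irs1, chr1:82291390-82291689: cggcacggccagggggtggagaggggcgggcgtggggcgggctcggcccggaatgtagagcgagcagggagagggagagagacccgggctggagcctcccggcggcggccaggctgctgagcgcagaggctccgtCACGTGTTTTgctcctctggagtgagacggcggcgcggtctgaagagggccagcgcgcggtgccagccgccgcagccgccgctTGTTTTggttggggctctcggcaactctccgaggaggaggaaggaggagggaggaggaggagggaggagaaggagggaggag
Irs2, chr8:11008880-11009179: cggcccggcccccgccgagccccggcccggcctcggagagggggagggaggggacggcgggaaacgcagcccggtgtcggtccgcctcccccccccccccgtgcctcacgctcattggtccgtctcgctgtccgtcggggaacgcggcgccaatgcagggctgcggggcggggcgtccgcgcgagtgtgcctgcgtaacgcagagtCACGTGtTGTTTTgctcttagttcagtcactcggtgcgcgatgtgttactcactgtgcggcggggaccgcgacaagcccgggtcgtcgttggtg
In Irs1 the E-box begins 115 bases before the start site and the insulin response core 111 bases before it, so that they overlap and share the letters TG, and a further core lies 32 bases before the start site. In Irs2 the E-box begins 44 and the core 37 bases before the start site, and they do not overlap. The Irs2 window lies wholly upstream of the gene as GENCODE places it, with its end at 11008458. The distances for Irs2 thus hold for the RefSeq start site only. Both strands were searched. The E-box was found in 7.15% of all 32851 promoter windows, the core in 22.1% and both in 1.22%; among the windows of the other genes the core was found in Slc2a12 and Tbc1d4 and the E-box in none. These are matches of letters, and no binding was measured.

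Irs1 had higher values in trained than in untrained WT muscle, without passing the test. Irs1, on the minus strand of chromosome 1 (82233101 to 82291416), encodes the main adaptor between the receptor and phosphatidylinositol 3-kinase in muscle. In WT it measured 73.8, 82.3, 83.4 and 75.2 CPM with training, against 63.5, 31.1, 72.3 and 62.2 CPM without. Those groups did not overlap, beside 2.36% of all tested genes that were higher without overlap and 0.143% that were called in that comparison, and the low value was again WT untrained replicate 2. In Tg it measured 86.6, 75.5, 72.0 and 77.5 CPM with training, against 69.2, 58.6, 61.2 and 73.8 CPM without, and these groups overlapped.

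The log2FC of Irs1 with training was 0.25 in Tg (95% interval -0.12 to 0.62) and 0.46 in WT (95% interval 0.09 to 0.83), at edgeR adjusted p of 0.651 and 0.432. Without WT untrained replicate 2 the value in WT was 0.248 (adjusted p = 0.353). Averaged over genotypes it was 0.35 (SE 0.123, adjusted p = 0.215, edgeR), in a comparison in which 0.457% of all tested genes were called and none of the 9 members was; 2 members, Irs1 and Slc2a4, had an unadjusted p under 0.05. Irs1 passed the threshold without WT untrained replicate 2 (log2FC 0.25, adjusted p = 0.0466) and without the 3 libraries high in Alb (0.23, adjusted p = 0.0444), and did not without the 4 libraries high in Myh7 (0.17, adjusted p = 0.241). A gene model on the opposite strand, Gm9747, shares 30.86% of the exon bases of Irs1, so part of the counts cannot be assigned without strand. Gm9747 measured 19.7 ± 2.69 CPM in trained Tg and 14.4 ± 2.35 CPM in untrained Tg libraries, and 19.2 ± 2.13 CPM in trained WT and 16.9 ± 5.32 CPM in untrained WT libraries (mean ± SD, n = 4).

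Irs2, on the minus strand of chromosome 8 (10984681 to 11008458), encodes an adaptor whose gene is known as a target of FoxO factors and is repressed by insulin in liver. It was low and even in trained Tg muscle, at 19.7, 18.4, 22.6 and 21.0 CPM, and uneven in trained WT muscle, at 27.1, 20.2, 49.1 and 62.3 CPM. In untrained muscle it measured 22.1, 25.6, 56.2 and 30.3 CPM in Tg, against 31.8, 24.7, 24.7 and 28.5 CPM in WT. High values thus belonged to 3 libraries, WT trained replicates 3 and 4 and Tg untrained replicate 3, while the other 13 lay between 18.4 and 31.8 CPM. The log2FC of Tg over WT was -0.96 with training (95% interval -1.61 to -0.31, unadjusted p = 0.0065, edgeR adjusted p = 0.424) and 0.29 without training (95% interval -0.35 to 0.94). Without Tg untrained replicate 3 the untrained value was -0.068, and without WT trained replicate 4 the trained value was -0.654. With training, 0.0114% of all tested genes were called between genotypes and none of the 9 members was. The log2FC of training was -0.72 in Tg (95% interval -1.37 to -0.07) and 0.53 in WT (95% interval -0.11 to 1.18), and the difference of these responses was -1.25 (SE 0.432, unadjusted p = 0.0103, edgeR adjusted p = 0.646). Without Tg untrained replicate 3 the training value in Tg was -0.361, and without WT trained replicate 4 that in WT was 0.226. In the contrast of the responses 0.0515% of all tested genes were called, and 6.03% had an unadjusted p under 0.05.

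Foxo1, the gene of the FoxO factor that insulin signalling keeps out of the nucleus, had its high values in 2 of the same trained libraries: it measured 14, 13.4, 14.5 and 11.9 CPM in trained Tg and 12.8, 12.3, 39.8 and 40.7 CPM in trained WT. In untrained muscle Foxo1 measured 13.3, 13.9, 14.5 and 16.6 CPM in Tg, against 18.3, 47.0, 23.9 and 27.5 CPM in WT. So Tg untrained replicate 3 was high in Irs2 and not in Foxo1, and WT untrained replicate 2 was high in Foxo1 and not in Irs2. Among the 3 libraries high in Irs2, Myh7 measured 29.7 CPM in WT trained replicate 3 and 42.1 CPM in Tg untrained replicate 3, and Alb, a liver transcript, measured 35.6 CPM in WT trained replicate 4, where the summed macrophage markers reached 105 CPM, against 28.7 to 84.9 CPM in the other 15 libraries. But Tg untrained replicate 2, with 64.3 CPM of Myh7 and 15 CPM of Alb, had 25.6 CPM of Irs2, and WT untrained replicate 2, with 11.2 CPM of Myh7 and 14.9 CPM of Alb, had 24.7 CPM. The part of these in the level of Irs2 was not tested. The 3 genes with the profile nearest to Irs2, listed after its values were seen, were Tbx3, Ier5 and Dclk1, at distances of 0.276, 0.279 and 0.286.

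Counted over the 9 genes, Slc2a3 was the 1 member called, in 2 of the 7 contrasts. An unadjusted p under 0.05 was reached by 2 members with training in WT (9.55% of all tested genes), 1 with training in Tg (11.1%), 2 in untrained Tg against WT (16.2%), 1 in trained Tg against WT (7.98%) and 2 in the difference of the responses (6.03%). It was reached by 2 with training averaged over genotypes (14.4%) and by 2 with Tg averaged over training (17.2%). The median log2FC of the 9 genes lay between -0.08 and 0.18 over the 7 contrasts, and that of all tested genes between -0.009 and 0.005. DESeq2 and limma-voom called Slc2a3 in the same 2 contrasts as edgeR and no other member in any.

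**Figure D4:**
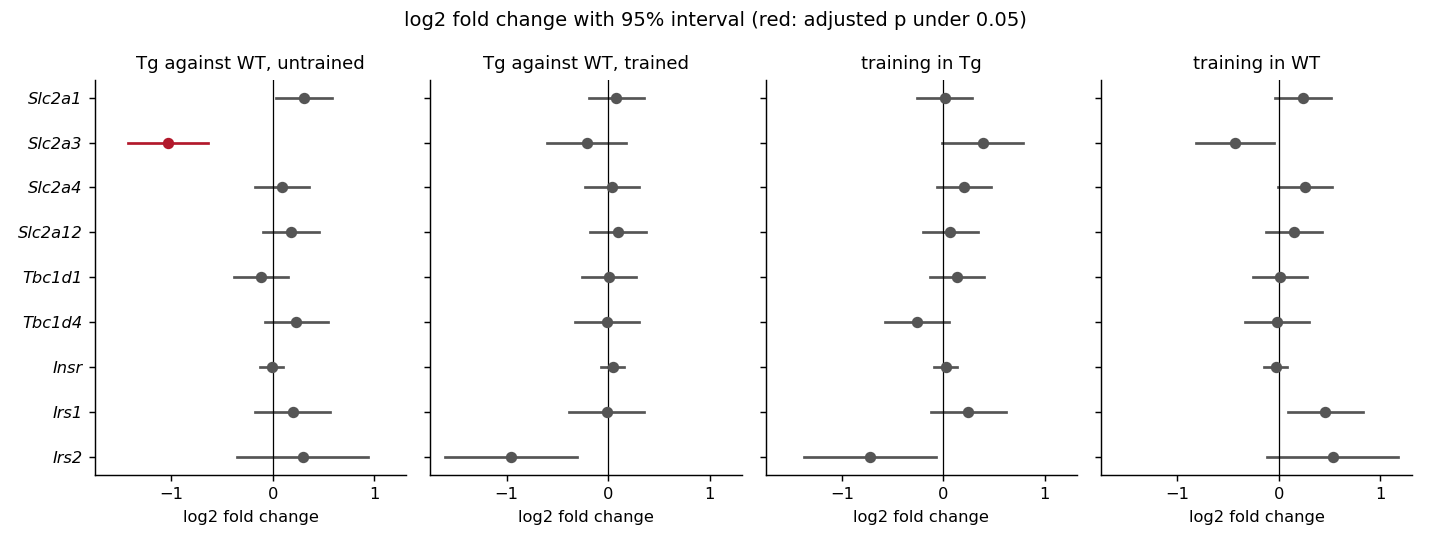
Log2 fold change (point) and 95% interval (line) of the 9 genes in the 4 pairwise contrasts, with an adjusted p under 0.05 in red. Slc2a3 in untrained Tg against untrained WT muscle (-1.03) is the 1 red point, and the intervals of Insr are the narrowest.

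Other genes of glucose uptake and insulin action were read as 7 lists. Of 10 further genes of the Slc2a and Slc5a transporter families, 5 passed the filter and none of those was called in any contrast. The most abundant, Slc2a8, measured 3.43 to 5.20 CPM. Irs4 had 0 counts in all libraries. Among 21 genes of GLUT4 vesicle traffic, Exoc7, a subunit of the exocyst that tethers vesicles at the membrane, was called lower in Tg averaged over training (log2FC -0.42, SE 0.0844, adjusted p = 0.0266, edgeR). Exoc7 measured 23.7, 28.8, 29.4 and 29.1 CPM in trained Tg and 33.5, 40.5, 36.2 and 27.2 CPM in trained WT libraries, and 26.2, 24.8, 23.4 and 22.6 CPM in untrained Tg and 35.8, 42.4, 31.9 and 29.8 CPM in untrained WT libraries. Beside its call, 0.503% of all tested genes were called lower in Tg averaged over training. The untrained groups did not overlap, beside 4.16% of all tested genes that were lower without overlap. In untrained Tg against WT the log2FC of Exoc7 was -0.53, just short of the threshold (edgeR adjusted p = 0.0515). There DESeq2 called Exoc7, among 442 of all tested genes, and limma-voom did not. The trained groups of Exoc7 overlapped, while 5.69% of all tested genes had no overlap there. Its call was lost without Tg trained replicates 2 or 4 (adjusted p = 0.0589 and 0.056), WT trained replicate 3 (0.0615), Tg untrained replicates 2 or 4 (0.0516 and 0.0572), or the 4 libraries high in Myh7 (log2FC -0.35, adjusted p = 0.0968).

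In the same contrast the list of vesicle traffic genes had 15 of 21 negative values and a median log2FC of -0.09. The summed level of the list was highest in WT untrained replicate 2, at 924 CPM, against 755 to 799 CPM in the other untrained WT libraries. Of all 17490 tested genes, 8714 had a positive log2FC in this contrast, and their median was -0.001. Sort1, the sorting receptor sortilin of GLUT4 vesicles, had a log2FC of -0.32 (edgeR adjusted p = 0.126). Rab10, a Rab GTPase on which TBC1D4 acts, had -0.21 (edgeR adjusted p = 0.126), and Vamp2, a vesicle SNARE, 0.19 (edgeR adjusted p = 0.187). None of these 3 was called. Of 28 tested genes of insulin signal transduction, none was called; the smallest p belonged to Foxo1 (log2FC -0.99, SE 0.249, adjusted p = 0.0641, edgeR). Of 13 brakes on insulin signalling, none was called; Socs1, a suppressor of cytokine signalling that also targets IRS proteins, came nearest (log2FC 0.98, SE 0.233, adjusted p = 0.0526) at low levels of 0.218 to 0.472 CPM in Tg and 0.0999 to 0.278 CPM in WT libraries. None of 8 AMPK subunit and kinase genes was called; Prkag2, a regulatory subunit gene, had the smallest p (log2FC -0.20, adjusted p = 0.109, edgeR). The hexokinases, which trap glucose in the cell, gave 4 tested genes and no call. Hk2, the muscle form, measured 311 to 353 CPM in trained Tg and 300.0 to 387 CPM in trained WT libraries.

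Of the 7 genes that regulate Slc2a4 transcription, Nr4a3, an exercise-induced nuclear receptor gene, had the smallest p in the genotype contrast (log2FC -1.67, adjusted p = 0.0847, edgeR). Nr4a3 measured 2.62, 1.53, 1.48 and 1.48 CPM in trained Tg and 4.02, 1.53, 17.1 and 34.1 CPM in trained WT libraries. Among the trained libraries, its high values fell in the 2 WT libraries that were also high in Irs2 and Foxo1. Trained Tg muscle was also lower in Nr4a3 than untrained Tg muscle, without passing the test (log2FC -2.30, edgeR adjusted p = 0.247). In Tg averaged over training DESeq2 called Foxo1, Socs1, Enpp1 and Nr4a3 besides Exoc7, where it called 639 of all 17490 tested genes. Of the genes in the lists, limma-voom called Exoc7 alone. In trained Tg against WT, DESeq2 called Nr4a3 and limma-voom did not, where DESeq2 called 54 of all tested genes.

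With training averaged over genotypes, edgeR, DESeq2 and limma-voom each called 0 of the genes in these 7 lists, and edgeR gave an unadjusted p under 0.05 to 5 of the 28 insulin signal transduction genes (2 higher, 3 lower), to 1 gene each of the other transporters, vesicle traffic and Slc2a4 regulators, and to 0 of the remaining lists, beside 14.4% of all tested genes. The smallest p values belonged to Ppargc1a, the coactivator gene PGC-1α that drives Slc2a4 transcription (log2FC 0.46, SE 0.139, adjusted p = 0.15), to Trarg1, a trafficking regulator of GLUT4 in fat (log2FC -0.63, SE 0.192, adjusted p = 0.151), and to Irs3, a rodent adaptor of adipocytes (log2FC -0.71, SE 0.217, adjusted p = 0.151, edgeR). Ppargc1a measured 36.1, 35.6, 37.3 and 33.3 CPM in trained Tg, against 26.9, 29.8, 27.3 and 30.7 CPM in untrained Tg libraries, without overlap. In that comparison 4.65% of all tested genes were higher without overlap. In WT Ppargc1a measured 32.0, 33.2, 51.8 and 58.9 CPM with training, against 31.0, 17.6, 35.3 and 31.9 CPM without. Trarg1 and Irs3 were at low levels, 0.837 to 3.55 CPM and 0.131 to 0.542 CPM over the 16 libraries. Adipocyte markers had a negative log2FC with training for 10 of 10 in the same contrast, with 5 called lower and a median of -1.74, beside 0.263% of all tested genes called lower; the part of fat cells in the levels of Trarg1 and Irs3 was not tested.

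**Figure D5:**
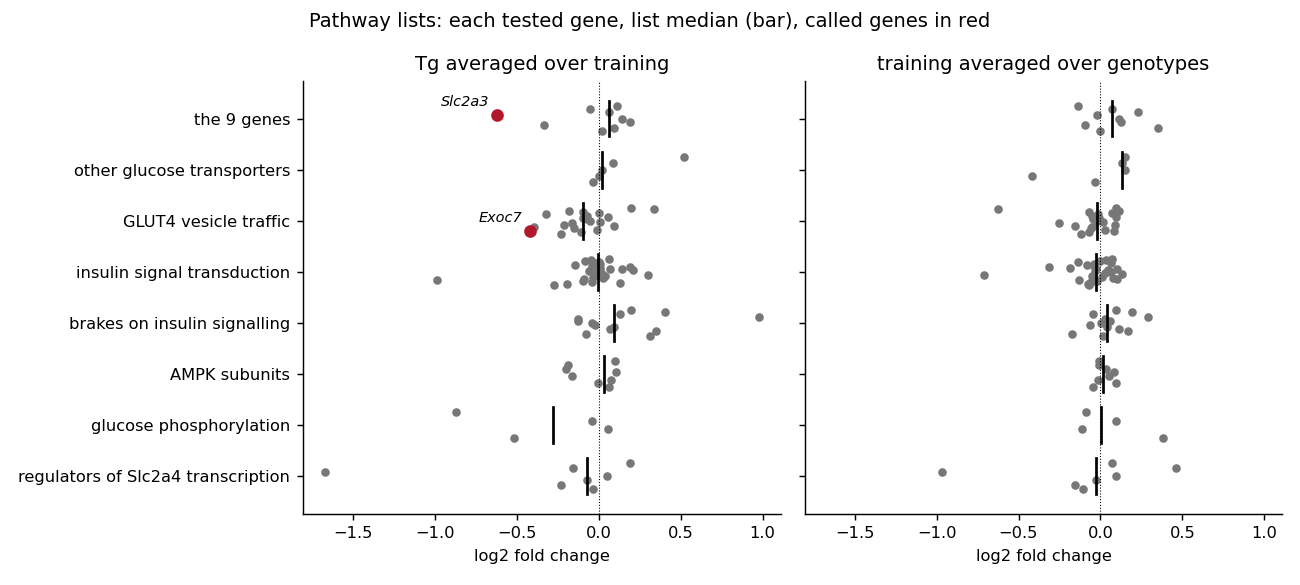
Log2 fold change of each tested gene of the 9 and of the 7 further lists, with Tg averaged over training on the left and training averaged over genotypes on the right; bars are list medians and called genes are red. Slc2a3 (-0.62) and Exoc7 (-0.42) are called in the left panel, and no gene is called in the right one.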

How the data were processed

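RNA-seq was measured in 16 skeletal muscle libraries, 4 in each of 4 groups. Per the submitters' processing notes, the authors used STAR 2.7.8a, RSEM 1.3.2 and the mm10 build, and they deposited RSEM expected counts per gene without normalization. The annotation release and the counting of strand are not given in the sources used here. Of the deposited expected counts, 12.48% were not whole, and all were rounded.

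Genes were kept with filterByExpr by group (17490 of 55487). One edgeR 4.0.16 quasi-likelihood model (R 4.3.3) with a mean per group was fitted to all tested genes with TMM factors. In each of 7 contrasts p-values were adjusted by the Benjamini-Hochberg method over all tested genes, and a gene was called at an adjusted p under 0.05. CPM are counts scaled to the TMM-adjusted library size by edgeR. The standard error (SE) and the 95% interval of a log2 fold change come from the quasi-likelihood F. For length scaling, exon unions from GENCODE release M21 (GRCm38) were used; the identifiers of all 9 genes matched that release, version included. The pipeline was tested on simulated data.

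The genes and lists were chosen with earlier results of these data known. Named were all 9 genes in each contrast, called genes of the pathway lists or else those with the smallest p, and for Slc2a3 and Slc2a4 the 3 named genes with the nearest profile; some genes that this rule selects are not reported here. The alternatives were DESeq2 1.42.0, limma-voom (limma 3.58.1), RLE in place of TMM factors, all genes with a count, genes reaching 1 CPM in 4 libraries, a replicate block, the 8 libraries of a contrast alone, and fits without each library, without libraries over 10 CPM of Myh7 (4 libraries) or over 10 CPM of Alb (3 libraries). No pair of replicates agreed within sampling noise (lowest chi-square per degree of freedom 7.31). P-values measure the spread between libraries, since nothing says that they came from separate animals.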

Additional observations from a re-analysis of the deposited data

Results flagged for a closer look

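Of 36 sets of 4 libraries, 1 for each of the 9 genes in each group, 4 held a library far from the other 3 by Dixon's ratio, where chance flags about 1 in 20. Slc2a3 measured 9.90 CPM in WT untrained replicate 2, against 5.57 to 6.25 CPM in the other untrained WT libraries. Slc2a12 measured 10.6 CPM in Tg untrained replicate 2, against 9.23 to 9.42 CPM in the other 3. Tbc1d4 measured 18.6 CPM in Tg trained replicate 3, against 13.6 to 14.4 CPM. Insr measured 72.8 CPM in Tg trained replicate 1, against 78.3 to 78.9 CPM, a narrow group in which a small gap stands out.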

How the results depend on the processing

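Calls across all tested genes depended on the method. DESeq2 called 68 genes for training in WT (25 with edgeR), 126 for training in Tg (0), 442 for untrained Tg against WT (130), 54 for trained Tg against WT (2), 35 for the difference of responses (9), 367 for training averaged over genotypes (80) and 639 for Tg averaged over training (196). The 8 libraries of a contrast alone gave 10, 123, 40 and 5 in the first 4 contrasts. Without a filter the counts were 5 for training in Tg, 1 for trained Tg against WT and 15 for the difference, and with the 1 CPM filter 1 for trained Tg against WT. Without the libraries high in Myh7 they were 9 for training in Tg, 32 for untrained Tg against WT, 4 for the difference and 41 for averaged training. Without those high in Alb they were 42 for training in WT, 104 for training in Tg and 584 for averaged training. With 1 library left out the 7 counts ranged over 16 to 30, 0 to 93, 43 to 138, 1 to 16, 6 to 12, 15 to 389 and 29 to 374, in the same order.

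With the replicate number as a block, 66 genes were called for untrained Tg against WT, 1 for trained Tg against WT and 16 for averaged training, and Slc2a3 stayed called for untrained Tg against WT (log2FC -1.016, edgeR adjusted p = 0.00488). The 24 same-numbered pairs of different groups had correlations of deviations from -0.215 to 0.214, with a median of -0.003, and 9 were over 0.1. The 72 pairs with unlike numbers had a median of 0.001, and those over 0.1 were not counted. By the medians no general pairing by number was seen, and weak or partial pairing was not tested.

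Some uncalled log2FC changed sign. Without the libraries high in Myh7 they were Tbc1d1 -0.044 for training in Tg, Slc2a4 -0.008, Slc2a12 -0.029, Tbc1d1 0.108, Irs2 -0.114 for untrained Tg against WT, Tbc1d4 0.022, Irs1 0.016, Slc2a9 -0.019 for trained Tg against WT, Slc2a4 0.052, Slc2a12 0.103, Tbc1d1 -0.049 for the difference of responses, Slc2a3 0.162, Tbc1d1 -0.02, Insr 0.002 for averaged training, Tbc1d1 0.083 for averaged Tg. Without those high in Alb they were Slc2a12 -0.001 for training in WT, Slc2a1 -0.099 for training in Tg, Slc2a4 -0.053, Slc2a12 -0.022 for untrained Tg against WT, Slc2a4 0.076, Slc2a12 0.116 for the difference of responses, Slc2a3 0.159, Insr 0.02 for averaged training, Slc2a4 -0.015 for averaged Tg. Other changes of sign were Tbc1d1 -0.003 for training in WT with its 8 libraries alone and Insr 0.006 for untrained Tg against WT with the 1 CPM filter. With 1 library left out, the ranges that crossed 0 were for training in WT, Tbc1d1 -0.039 to 0.07, Tbc1d4 -0.115 to 0.117, Slc2a12 -0.006 to 0.249, and for training in Tg, Slc2a1 -0.096 to 0.127, Tbc1d1 -0.004 to 0.229, Insr -0.017 to 0.064, and for untrained Tg against WT, Tbc1d1 -0.211 to 0.019, Insr -0.048 to 0.029, Irs2 -0.068 to 0.449, Slc2a4 -0.068 to 0.167, Irs1 -0.007 to 0.33. They were also, for trained Tg against WT, Tbc1d4 -0.128 to 0.044, Irs1 -0.069 to 0.022, Tbc1d1 -0.051 to 0.058, Slc2a9 -0.02 to 0.534, and for the difference of responses, Tbc1d1 -0.008 to 0.223, Slc2a4 -0.129 to 0.107, Slc2a12 -0.18 to 0.071, and for averaged training, Slc2a3 -0.089 to 0.086, Insr -0.026 to 0.018, Irs2 -0.247 to 0.083, and for averaged Tg, Insr -0.002 to 0.038, Tbc1d1 -0.1 to 0.016, Slc2a4 -0.015 to 0.102, Irs1 -0.01 to 0.158. The cause of these changes was not tested. Depth limits Slc2a3 most where it is lowest, since its levels rest on 138 to 557 counts in a library.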
